A study of Homo sapiens with 3 samples.

Results

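Transfer RNA (tRNA) genes of chromosomes 1 and 6 were taken from the RefSeq table of GRCh38 by their biotype, which gave 253 genes of 465 tRNA genes in the whole table. Of these, 239 lay on the assembled chromosomes, 85 on chromosome 1 and 154 on chromosome 6, and received a distance to the nearest SOX4 summit. The other 14 rows had positions that restart from the beginning of an unnamed scaffold or patch and were given no distance. The comparison set was the 190 nuclear tRNA genes of all other chromosomes. SOX4 was measured by chromatin immunoprecipitation and sequencing (ChIP-seq) in BT549, an established line of human triple-negative breast cancer cells at passage 5, with the Abcam antibody ab86809. Cells were crosslinked with DSG followed by formaldehyde, and paired-end reads of 36 bases were sequenced. All 3 libraries, replicates 1 to 3, belong to 1 group (UT in the titles, an abbreviation that the labels do not spell out). No library of another condition and no input or control immunoprecipitation was analysed here. The labels do not say that the libraries came from separate cultures, so the spread between them may be technical.

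tRNA genes are short and are read by RNA polymerase III. Their promoter lies inside the gene: the A box and the B box, which also shape the folded tRNA, are bound by the factor TFIIIC, which places TFIIIB and the polymerase just upstream. The genes are named by amino acid and anticodon, so TRE-CTC denotes glutamate with anticodon CTC, and TRX-CAT the initiator methionine. Many human tRNA genes stand in clusters, among them tandem copies on the long arm of chromosome 1 and a large group on the short arm of chromosome 6 beside the replication-dependent histone genes. SOX4 is a high-mobility-group transcription factor that binds short motifs with the core ACAAAG or ACAATG.

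The sequences below show the internal promoter of the genes studied. The table of RefSeq promoter windows (GRCh38.p14) has no window for a tRNA gene, but 7 of the 239 genes lay whole inside the window of a neighbouring gene and could be read there. Capitals mark the matches to the A box consensus, which begins with TGGC, and to the B box (GTTCNANNC), and the strand is the one on which the B box matched. The first 3 genes had a summit within 1 kb in 1 library, and the last 2 had none in any library.
TRI-TAT2-2 (chr6:27020346-27020439, plus): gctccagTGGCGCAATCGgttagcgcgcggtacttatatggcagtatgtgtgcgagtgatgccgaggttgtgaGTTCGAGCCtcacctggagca
TRI-AAT8-1 (chr6:27668583-27668656, plus): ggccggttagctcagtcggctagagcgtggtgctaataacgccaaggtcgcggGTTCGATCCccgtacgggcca
TRL-AAG2-2 (chr6:28943622-28943703, minus): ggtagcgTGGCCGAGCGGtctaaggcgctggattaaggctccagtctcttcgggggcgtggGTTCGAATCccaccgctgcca
TRN-GTT4-1 (chr1:16889677-16889750, plus): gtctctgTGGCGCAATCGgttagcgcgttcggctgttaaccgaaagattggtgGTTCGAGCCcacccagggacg
TRH-GTG1-3 (chr1:148281365-148281436, plus): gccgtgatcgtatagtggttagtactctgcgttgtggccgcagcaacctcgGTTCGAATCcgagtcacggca
The B box letters matched in all 7 genes and the A box letters in 4, with and without a nearby summit alike. Only this form of the A box was searched, so a gene without a match was not shown to lack an A box. Matches to both boxes were present in TRN-GTT4-1, which had no summit within 1 kb in any library. Searched on both strands, the B box letters occurred in 7.49% and the A box letters in 15.8% of all 34935 windows of 300 bp in the table. The SOX core ACAAAG was in none of the 7 windows, against 16.1% of all windows. ACAATG was in 1 of the 3 windows of genes with a summit within 1 kb and in 2 of the 4 others, against 10.8% of all windows. Only the windows read for TRI-AAT8-1 and TRL-AAG2-2 held a summit themselves, each of replicate 3. Neither SOX core was found in those windows. No motif was searched at the other tRNA genes, for which no sequence was used here.

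Most tRNA genes of chromosomes 1 and 6 had no SOX4 summit nearby. A gene is called marked where a summit lay within 1 kb of it, counted from its nearer end and as 0 inside it. Of the 239 genes, 10 were marked in replicate 1 (4.18%), 7 in replicate 2 (2.93%) and 21 in replicate 3 (8.79%). In any of the 3 lists there was a summit near 23 genes (9.62%, exact 95% binomial interval 6.2 to 14.1%). At least 2 libraries did so for 10 genes (4.18%, 2.02 to 7.56%) and all 3 for 5 genes (2.09%). The intervals treat genes as separate and cover counting error only, although neighbouring genes shared summits. The remaining 216 genes had no summit within 1 kb in any library. Their nearest summit of any library lay at a median of 42.5 kb, and it was over 10 kb away for 179 of them (82.9%).

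The background differed with the genes chosen for it. Of all 58957 genes of the table, 9.13% had a summit within 1 kb in at least 1 library, 2.28% in at least 2 and 0.711% in all 3. Many of those genes are longer, and a summit anywhere inside a gene counts. Among 6540 other genes of at most 200 bp, a length like that of tRNA genes, the shares were 1.96%, 0.688% and 0.321%. Other genes here means any biotype but tRNA. Rows with a tRNA symbol and another biotype were not removed, and chromosomes 1 and 6 have 33 such rows of any length. Per library, these short genes had a summit in 0.596%, 0.52% and 1.85% of cases, below the tRNA genes of chromosomes 1 and 6 in each of the 3 libraries. All genes gave 2.06%, 2.15% and 7.91% and protein-coding genes 4.21%, 4.18% and 16.5%, and apart from the last these shares lay inside the counting intervals of the tRNA genes (2.02 to 7.56%, 1.19 to 5.94% and 5.52 to 13.1%). The coding share of replicate 3 lay above its interval, and the shares of short genes lay below theirs in each library. Restricted to chromosomes 1 and 6, any library marked 29 of 977 other short genes (2.97%). Protein-coding genes gave 18.9% in at least 1 library, 4.64% in at least 2 and 1.34% in all 3.

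**Figure D1:**
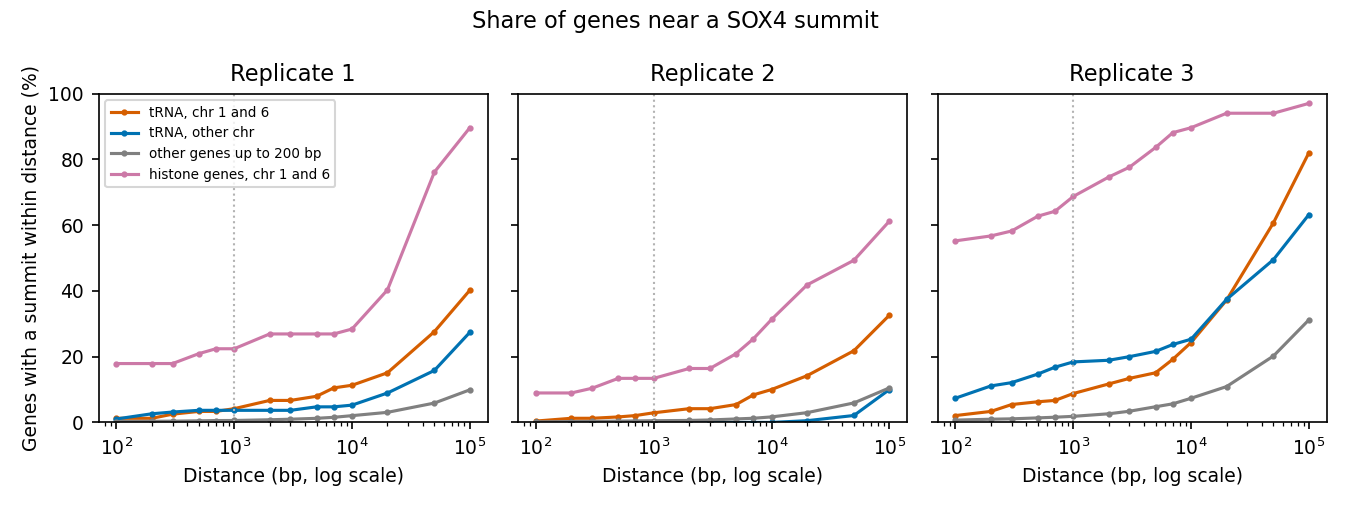
Share of genes (y axis, percent) with a summit within a given distance (x axis, bp, log scale) in each of the 3 libraries, 1 panel a library. Lines join the shares of tRNA genes of chromosomes 1 and 6, tRNA genes of other chromosomes, other genes of at most 200 bp and histone genes of chromosomes 1 and 6. At the dotted line (1 kb) the tRNA genes of chromosomes 1 and 6 stand at 4.18, 2.93 and 8.79%, above other short genes and below histone genes in every panel.

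The 3 lists differ in length, with 1368, 1713 and 4430 summits, of which 171, 183 and 511 lay on chromosome 1 and 49, 53 and 296 on chromosome 6. The score of a summit is the authors' own, the −log10 of either a p-value or a q-value, and ranks summits only within 1 list. Its median over the whole list was 6.12, 5.57 and 5.58. Read numbers were not used here, so the depth is unknown.

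The 23 genes were served by few summits. Replicates 1 to 3 had 5, 4 and 13 distinct summits within 1 kb of a tRNA gene of these chromosomes, 22 in all. Of these, 11 lay near more than 1 tRNA gene. A tRNA gene was the gene with the nearest end for 17 of the 22, and 1 summit fell inside a tRNA gene, in TRE-CTC1-4 in replicate 1. The end of a protein-coding gene was over 5 kb away from all 22, at a median of 35.9 kb. Scores ran from 3.21 to 9.92, with medians of 4.55, 4.32 and 6.74 in the 3 libraries. Within its own list the median summit near a tRNA gene thus stood above 21.6%, 24.1% and 73.4% of summits. The summits of replicates 1 and 2 ranked in the lower part of their lists, with 1 of 5 and 0 of 4 at or above the list median, whereas 9 of 13 were so in replicate 3.

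The main group of summits stood in the array on the long arm of chromosome 1. This cluster, which joins tRNA genes with gaps of at most 100 kb, ran from TRV-CAC1-1 to TRL-CAA6-1 (161399700 to 161612029, 32 genes). It held 8, 5 and 9 genes with a summit within 1 kb in replicates 1 to 3, on 3, 2 and 4 distinct summits. At least 1 library marked 10 of its genes (31.2%), at least 2 marked 7 and all 3 marked 5. All 5 tRNA genes with a summit in every library were in this array. Outside it, 0 of the 207 other genes of both chromosomes reached 3 libraries (a count of 0, read as 3 counts of the total, allows a share of up to 1.45%), 3 reached at least 2, and 13 (6.28%) reached at least 1.

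Within the array, tRNA genes recur in units in the order glutamate (TRE-CTC), glycine (TRG-TCC), aspartate (TRD-GTC), leucine (TRL-CAG) and glycine again (TRG-GCC). The order was not regular throughout. The genes before TRE-CTC1-2, from TRG-TCC4-1 to TRG-GCC1-1, followed it without a glutamate gene. In the unit of TRE-CTC1-5 the last glycine gene, TRG-GCC4-1, stood farther off, 33.34 kb from the start of TRE-CTC1-2, against 23.89 kb for TRL-CAG1-5. The starts of TRE-CTC1-2, TRE-CTC1-3, TRE-CTC1-4 and TRE-CTC1-5 were 7380, 7411 and 7380 bp apart. Summits recurred in 3 of these units, within 158 bp of the glutamate gene wherever a library had one.

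TRE-CTC1-3 (chr1:161454608-161454679) decodes the glutamate codon GAG. Its nearest summit was 44 bp away in replicate 1 (score 4.4), 38 bp in replicate 2 (score 4.77) and 75 bp in replicate 3 (score 8.58). The 3 positions spanned 190 bp, on either side of the gene. The next gene of the unit, TRG-TCC2-3, for glycine, lay 243, 396 and 433 bp from the same summits.

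TRE-CTC1-4 (chr1:161462019-161462090) had a summit inside the gene in replicate 1 (161462028, score 4.55) and 73 bp away in replicate 3 (161462163, score 6.38). Replicate 2 had none in this unit, and its nearest summit was 7449 bp away, at the unit before. TRG-TCC2-4 lay 348 bp from the summit of replicate 1, 213 bp from that of replicate 3 and 7181 bp from the nearest one of replicate 2.

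TRE-CTC1-5 (chr1:161469399-161469470) had a summit 10 bp away in replicate 1 (score 6.32), 158 bp in replicate 2 (score 4.73) and 106 bp in replicate 3 (score 8.78). In this unit all 3 summits lay on the same side, between the glutamate gene and TRG-TCC2-5, which was 277, 129 and 181 bp from them. TRD-GTC2-5, an aspartate gene, was the third gene of the unit within 1 kb, at 935, 787 and 839 bp. In the neighbouring units the aspartate gene came within 1 kb in 1 library only, TRD-GTC2-3 at 901 bp in replicate 1 and TRD-GTC2-4 at 871 bp in replicate 3. These aspartate genes sat at the edge of the window: TRD-GTC2-4 was 1006 bp from the summit of replicate 1, and TRD-GTC2-3 was 1054 and 1091 bp from those of replicates 2 and 3.

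The unit of TRE-CTC1-2 differed. TRE-CTC1-2 (chr1:161447228-161447299) and its neighbours had no summit within 1 kb in any library, although the gene belongs to the same named set as the other 3. The leucine (TRL-CAG) and TRG-GCC genes of all units likewise had none. The genes before TRE-CTC1-2, from TRG-TCC4-1 to TRG-GCC1-1, include no glutamate gene and also had none. At the start of the cluster, TRV-CAC1-1 (chr1:161399700-161399772), for valine, had a summit 97 bp away in replicate 3 (score 7.51) and its nearest summits in replicates 1 and 2 were 54.95 and 54.8 kb away. Ranked within their own lists, the 4 summits of the array in replicate 3 stood above 67 to 88.9% of summits, the 3 of replicate 1 above 18.6 to 52.6% and the 2 of replicate 2 above 32.6 and 33.9%. The copies of the array resemble each other, and how reads of 36 bases that match several copies were placed is not given in the sources used here. Its part in which copy carries a summit was not tested.

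**Figure D2:**
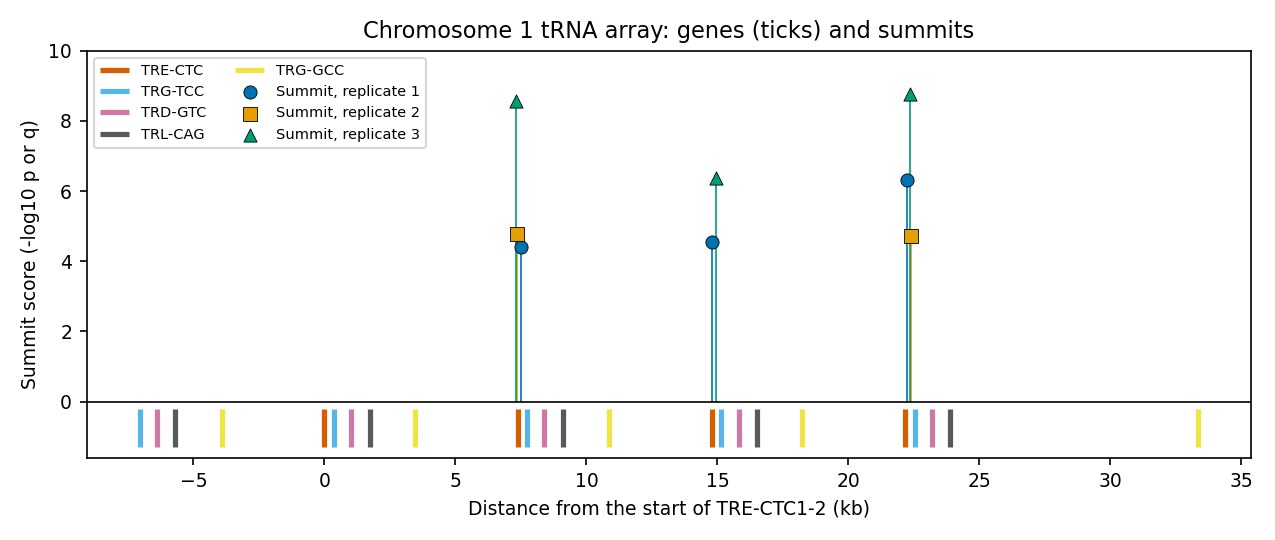
The repeated units of the chromosome 1 array. The x axis is the distance from the start of TRE-CTC1-2 in kb, ticks below the line are tRNA genes coloured by family, and markers give the score of each summit (y axis, −log10 of p or q) in the 3 libraries. Summits stand beside TRE-CTC1-3, TRE-CTC1-4 and TRE-CTC1-5 and none stands beside TRE-CTC1-2.

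Outside the array, chromosome 1 held summits at 2 further places. TRG-CCC5-1 (chr1:16727285-16727355), for glycine, had a summit 517 bp away in replicate 2 (score 3.9) and 238 bp away in replicate 3 (score 3.21), and its nearest in replicate 1 was 13.09 kb away. Both scores were low in their lists, above 15.6% and 2.33% of summits. TRP-CGG1-1 (chr1:167714725-167714796), for proline, had one 315 bp away in replicate 1 (score 4.63) and 88 bp away in replicate 3 (score 7.35), and its nearest in replicate 2 was 511.1 kb away. The proline gene beside it, TRP-AGG2-1, lay 851 bp from the same summit in replicate 3 and 1078 bp from that of replicate 1. In all, 3 of the 53 genes of chromosome 1 outside the array (5.66%) had a summit within 1 kb.

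Chromosome 6 held more tRNA genes and fewer repeated summits. Its 154 genes had a summit within 1 kb in 1 case in replicate 1 (0.649%), 1 in replicate 2 (0.649%) and 9 in replicate 3 (5.84%), against 10.6%, 7.06% and 14.1% of the 85 genes of chromosome 1. Any library marked 10 genes of chromosome 6 (6.49%) and 13 of chromosome 1 (15.3%). At least 2 libraries marked 1 and 9 genes, and all 3 marked 0 and 5 (a count of 0 of 154 allows a share of up to 1.95%). Chromosome 1 was higher in each of the 3 libraries, and the difference between the chromosomes was not tested. Without the array, the share in any library was 5.66% on chromosome 1.

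The gene marked in 2 libraries on chromosome 6 was TRL-CAG1-7 (chr6:26521208-26521290), for leucine. Its summits were 766 bp away in replicate 2 (26522056, score 3.3) and 789 bp away in replicate 3 (26522079, score 6.76), only 23 bp from each other. They lay inside LOC107986583, a gene of the table that is not a tRNA gene, and 350 and 373 bp from an end of HCG11. In replicate 1 the nearest summit was 235.8 kb away.

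The other genes of chromosome 6 with a summit were marked in 1 library. TRI-TAT2-2, for isoleucine, was 242 bp from the highest-scoring summit near any of these genes (replicate 3, score 9.92, above 92.6% of its list), which lay in LINC00240 and 202 bp from LARRPM. TRL-AAG2-2, for leucine, was 54 bp from a summit of replicate 3 (score 6.74) that stood 27 bp from LINC01556, and TRM-CAT3-1, for the methionine of elongation, was 818 bp from the same summit. TRL-TAA1-1 on the long arm (chr6:144216547-144216629) was 299 bp from a summit of replicate 3 (score 6.68). TRS-AGA2-2 (519 bp) and TRD-GTC2-6 (262 bp) shared 1 summit of replicate 3 (score 4.73). TRI-AAT8-1 and TRA-AGC2-1 were 161 and 393 bp from summits of replicate 3 with scores of 4.81 and 3.24. The summit near TRA-AGC2-1 lay inside LOC124901296, 115 bp from an end of it, and stood above only 2.39% of its list. TRL-CAA1-1 was the one gene marked in replicate 1, at 240 bp (score 3.71). Of the 9 genes of chromosome 6 marked in a single library, 8 were thus marked in replicate 3, the longest list.

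**Figure D3:**
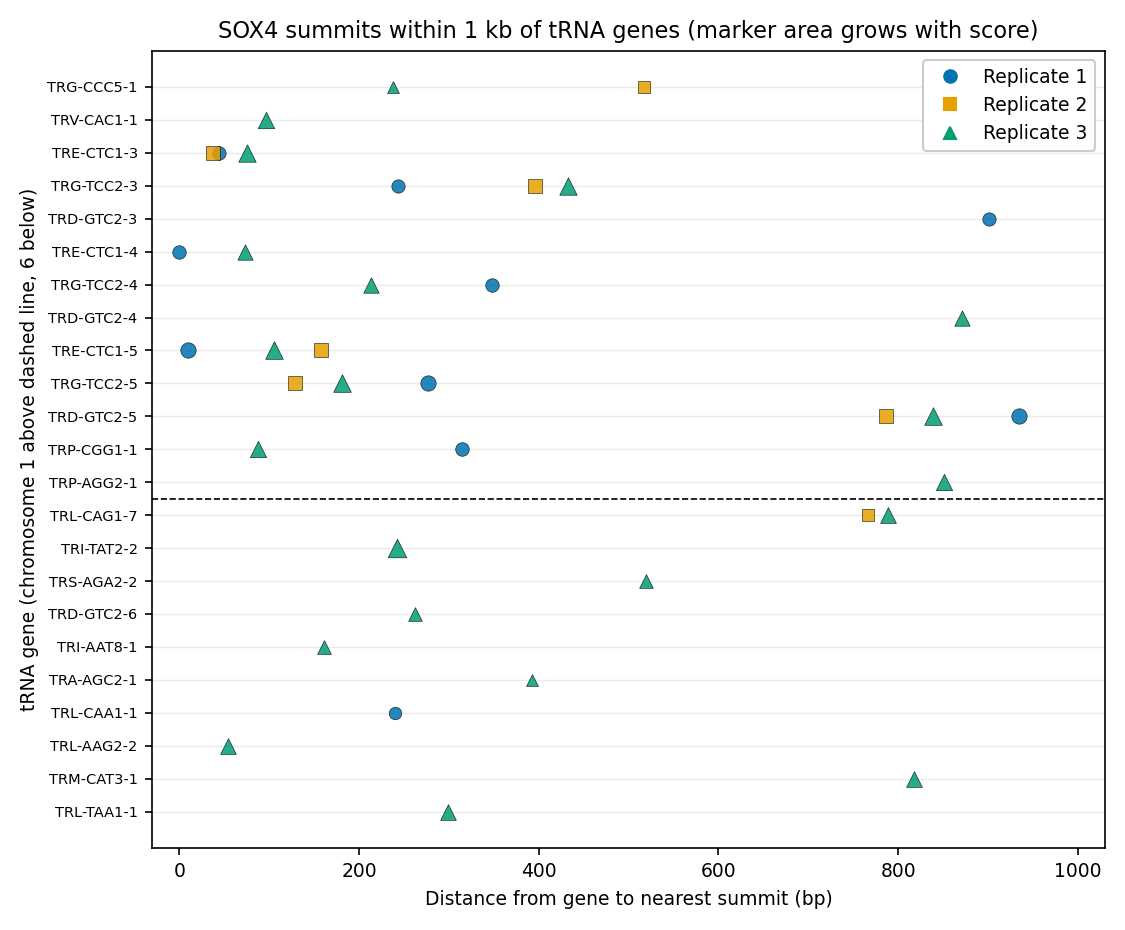
Distance in bp (x axis) from each of the 23 tRNA genes with a summit within 1 kb (rows, in order of position) to the nearest summit of each library, with marker area growing with the score. The dashed line parts the 13 genes of chromosome 1 from the 10 of chromosome 6. Genes with 3 markers are all in the chromosome 1 array, and most rows of chromosome 6 hold a marker of replicate 3 alone.

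With gaps of at most 100 kb, the 239 genes formed 42 clusters, 30 on chromosome 1 and 12 on chromosome 6, of which 22 had more than 1 gene. A summit lay within 1 kb of some gene in 8 clusters, 3 on chromosome 1 and 5 on chromosome 6. At least 2 libraries did so in 4 clusters, and all 3 in the array alone. The cluster with the most genes, 43 on chromosome 6 from TRT-TGT1-1 to TRL-AAG3-1 (28474552 to 28989083), had 4 genes with a summit, 1 in replicate 1 and 3 in replicate 3. The clusters from TRS-AGA2-2 to TRQ-TTG3-3 (33 genes), from TRL-CAG1-7 to TRA-AGC14-2 (31 genes) and from TRI-TAT2-2 to TRK-TTT6-1 (21 genes) had 3, 1 and 1. The array thus had 10 of 32 genes marked, and these 4 large clusters of chromosome 6 had 9 of their genes marked between them. Those 9 were all the marked genes among the 144 from TRX-CAT1-2 to TRL-AAG3-1 (6.25%). The share over all 239 genes was 9.62%. A cluster of 6 genes from TRI-AAT1-1 to TRA-AGC12-3 (57800211 to 57856473) had none.

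The short arm of chromosome 6 allows tRNA genes to be set beside histone genes. Replication-dependent histone genes, which are read by RNA polymerase II in S phase, were often marked. Of 67 such genes on chromosomes 1 and 6, replicates 1 to 3 marked 15, 9 and 46. Any library marked 46 (68.7%), at least 2 marked 19 and all 3 marked 5. None of the tRNA genes near them was marked. With all 3 lists, 0 of the 9 tRNA genes within 20 kb of a histone gene had a summit within 1 kb, against 23 of the 230 others (10%). A count of 0 of 9 allows a share of up to 33.3%, so the sets could not be told apart at this number. Within 100 kb of a histone gene the count was 0 of 34, which allows up to 8.82% as 3 counts of the total and up to 10.3% by the exact 95% binomial interval. With a window of 10 kb in place of 1 kb the order turned, with 3 of the 9 genes (33.3%) and 57 of the 230 (24.8%) near a summit.

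TRX-CAT1-2 (chr6:26286526-26286597), an initiator methionine gene, was the nearest of all to a histone gene, 992 bp from H4C8. Its nearest summits were 1119 bp away in replicate 1 (26285407, score 4.4) and 1135 bp away in replicate 3 (26285391, score 5.32), just outside the window and both inside H4C8. The cluster it opens, 13 genes to TRW-CCA3-2 (26286526 to 26331515), had no summit within 1 kb of any gene. On the whole stretch from the first histone gene to the last tRNA gene (25726063 to 28989083), the lists held 9, 5 and 47 summits in replicates 1 to 3. Of these, 6, 3 and 31 lay within 1 kb of a histone gene, 1, 1 and 6 within 1 kb of a tRNA gene, and 0 within 1 kb of both. The summits on this stretch therefore fell on histone genes more often than on tRNA genes in each library, although the stretch has 144 tRNA genes and 54 histone genes.

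**Figure D4:**
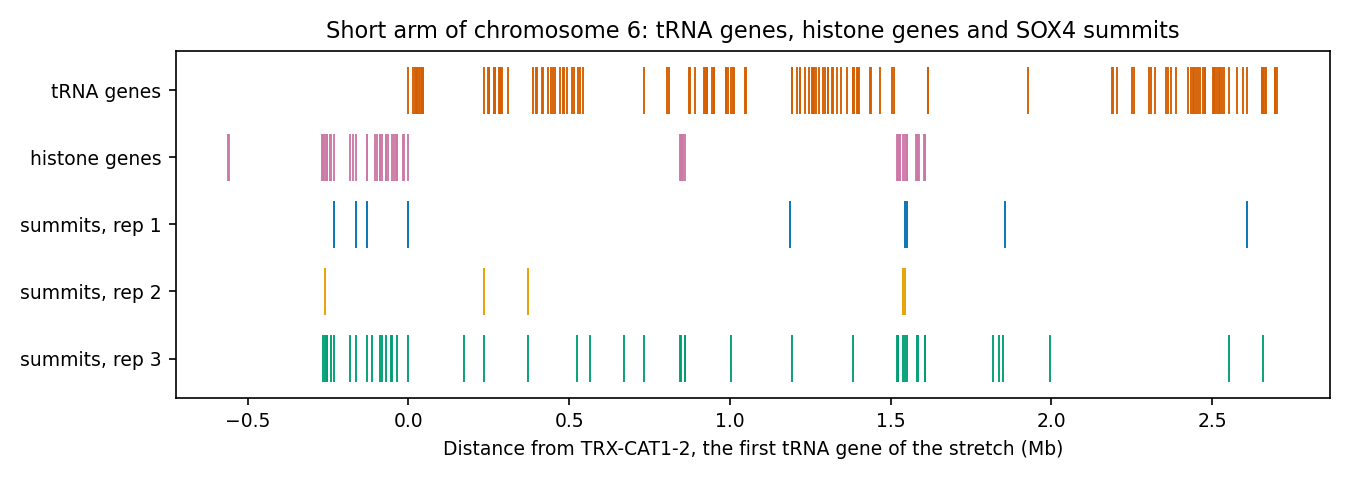
Positions on the short arm of chromosome 6 as distance in Mb from TRX-CAT1-2 (x axis), with a row each for tRNA genes, histone genes and the summits of the 3 libraries. Of the 47 summits of replicate 3, 31 lie within 1 kb of a histone gene, and the first block of 13 tRNA genes, just right of 0, holds none within 1 kb.

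By amino acid, the 239 genes fall into 21 classes, of which 10 had a marked gene. Aspartate had 4 of 8 genes marked, proline 2 of 4, glutamate 3 of 11, glycine 4 of 19 and leucine 4 of 19. Isoleucine had 2 of 15, and methionine (1 of 8), valine (1 of 16), serine (1 of 17) and alanine (1 of 30) had 1 each. None was marked among asparagine (17), glutamine (16), arginine (13), lysine (11), threonine (10) or initiator methionine (7) genes. Over all 239 genes the share marked was 9.62%. The glutamate genes and 3 of the glycine and 3 of the aspartate genes were those of the array, so these classes share their summits and are not separate observations. The marked proline genes, TRP-CGG1-1 and TRP-AGG2-1, likewise stood side by side and shared their summit of replicate 3. By anticodon, 16 of 43 kinds had a marked gene.

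tRNA genes of other chromosomes differed between libraries. Of these 190 genes, 7 had a summit within 1 kb in replicate 1 (3.68%), 0 in replicate 2 (which allows up to 1.58%) and 35 in replicate 3 (18.4%). Their share was thus lower than on chromosomes 1 and 6 in replicates 1 and 2, by 0.5 and 2.93 percentage points, and higher in replicate 3 (difference −9.63 points). The mean share was 5.3% ± 3.08 (SD, n = 3) on chromosomes 1 and 6 and 7.37% ± 9.75 (SD, n = 3) elsewhere, a difference of −2.07 ± 6.66 points. An exact two-sided sign-flip permutation test over the 3 libraries gave p = 1, and the smallest p this design allows is 0.25. In any library, 37 of the 190 genes had a summit (19.5%), in at least 2 libraries 5 (2.63%) and in all 3 none.

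The 5 genes of other chromosomes marked in 2 libraries were each marked in replicates 1 and 3. TRP-AGG2-6, for proline, on chromosome 14 (20613401 to 20613472) was 133 and 105 bp from their summits, and TRT-TGT3-1, for threonine, was 185 and 213 bp from the same ones. TRE-TTC1-2 lay within ELF1 on chromosome 13, 481 and 396 bp from summits, and TRR-TCG1-1 on chromosome 15, 249 bp from POLG, was 258 bp from one and held the other. TRS-AGA2-5 on chromosome 8 was 96 bp from a summit of replicate 1 and held one of replicate 3. None of these genes had a summit within 1 kb in replicate 2, as was also so for TRE-CTC1-4 and TRG-TCC2-4 in the array.

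Nearby coding genes differed between the sets. The end of a coding gene lay within 5 kb for 21 of the 239 tRNA genes of chromosomes 1 and 6 (8.79%) and for 85 of the 190 elsewhere (44.7%), at median distances of 34.8 and 7.33 kb. Of the 29 distinct summits near tRNA genes of other chromosomes, 17 were within 1 kb of a coding gene end, against 0 of the 22 on chromosomes 1 and 6. Among genes over 5 kb from a coding gene end, 23 of 218 (10.6%) on chromosomes 1 and 6 and 12 of 105 (11.4%) elsewhere were marked in some library. Among genes within 5 kb of one, the counts were 0 of 21 and 25 of 85 (29.4%). Over the 3 libraries, the mean difference between the sets for genes over 5 kb away was 1.37 points, the opposite sign to that for all genes, with an exact sign-flip permutation p of 0.5. For these genes the shares on chromosomes 1 and 6 were 4.59, 3.21 and 9.63% in replicates 1 to 3, against 1.9, 0 and 11.4% elsewhere. The order within each library was thus the same as for all genes, and only the mean changed sign. The part of neighbouring coding genes in the difference between sets was not tested.

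**Figure D5:**
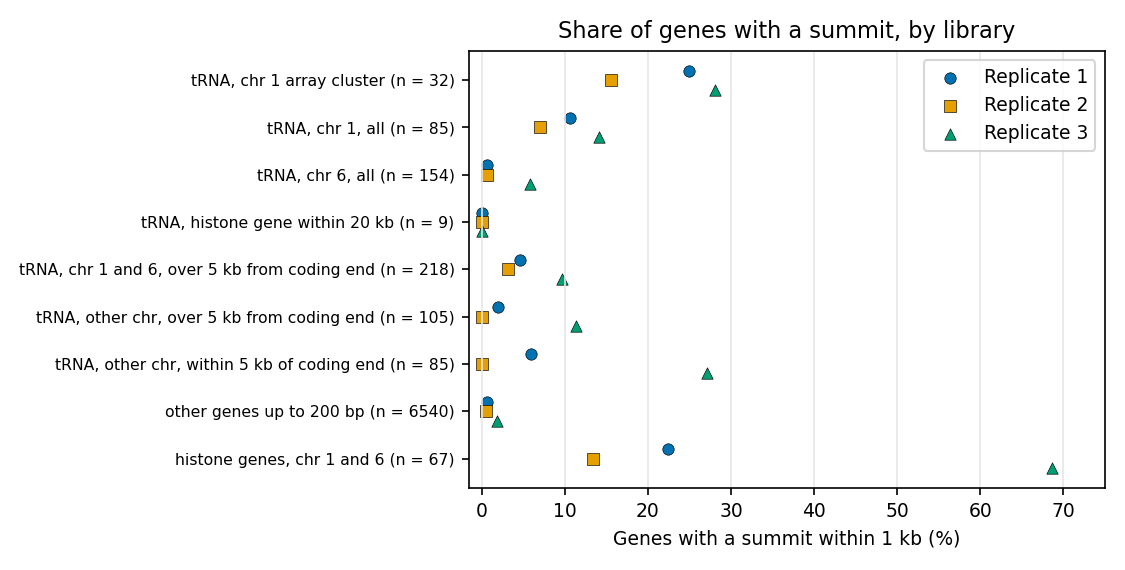
Share of genes with a summit within 1 kb (x axis, percent) in each library (markers) for groups of tRNA genes, other short genes and histone genes (rows, with the number of genes). The array cluster reads 25, 15.6 and 28.1% in replicates 1 to 3, and the tRNA genes of other chromosomes within 5 kb of a coding gene end stand high in replicate 3 only.

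Over longer distances, the tRNA genes of chromosomes 1 and 6 had smaller median distances to a summit than other tRNA genes and other short genes, and larger ones than histone genes. The median distance to the nearest summit was 153, 232 and 37.1 kb in replicates 1 to 3. For other tRNA genes it was 1512, 484 and 51.2 kb, and for other short genes 1113, 1024 and 244 kb. Other short genes of chromosomes 1 and 6 alone were closer to a summit, at 713, 565 and 120 kb. For histone genes it was 27.2, 58.9 and 0 kb. Chromosome 1 genes gave 71.9, 72.2 and 15.1 kb and chromosome 6 genes 165, 280 and 42.3 kb. The clustering of these genes means that 1 summit sets the distance of many, and no test was made.

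Genes whose products make or use tRNA were examined for the same summits. Of 31 genes of the RNA polymerase III machinery, 14 had a summit within 1 kb or inside the gene in any library and 2 in at least 2. Of 28 genes of tRNA processing and export the counts were 9 and 0, and of 20 cytosolic aminoacyl-tRNA synthetases, which charge tRNAs with amino acids, 10 and 2. These are coding genes, for which the background was 18.9% and 4.64%. SNAPC3, a subunit of the complex that recruits RNA polymerase III to small nuclear RNA genes, was 43, 194 and 262 bp from summits of replicates 1 to 3 (scores 5.83, 3.09 and 7.71). TARS1, the threonyl-tRNA synthetase, held a summit in each library (scores 6.4, 3.9 and 9.53). POLR3G, a polymerase III subunit, held one in replicates 2 and 3. Of the listed subunits of TFIIIC, the factor that reads the A and B boxes, GTF3C2, GTF3C4 and GTF3C6 were marked, each in replicate 3 alone. The other listed subunits were not marked, and replicate 3 marked 16.5% of all coding genes. GTF3C2 and GTF3C4 held the summit, and GTF3C6 was 58 bp from it.

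Of 36 other genes read by RNA polymerase III, 3 were marked in any library (8.33%) and 1 in at least 2 (2.78%). All genes, many of them longer, gave 9.13% and 2.28%. Genes of at most 200 bp with a biotype other than tRNA gave 1.96% and 0.688%. That set includes short genes of the 36, such as RNA5S17 (121 bp), while some of the 36 are longer, such as RPPH1 (341 bp). The difference from either background was not tested. RPPH1, the RNA of RNase P, which trims the 5′ end of tRNA precursors, was 95 bp from a summit of replicate 2 and held one of replicate 3. RN7SL2, a signal recognition particle RNA, and RNA5S17, a 5S ribosomal RNA gene, each held 1 of replicate 3. The 17 genes of the 5S array, also a tandem array on chromosome 1 (228610266 to 228646158), had this 1 gene marked, with the closest summits of the other libraries 52.2 kb (replicate 1) and 52.7 kb (replicate 2) away.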

How the data were processed

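SOX4 ChIP-seq summits came from 3 libraries of 1 group, as 1 list per library. The authors deposited 1 bp summits with the −log10 of either a p-value or a q-value, made with BWA, SAMtools and MACS2, per the submitters' processing notes. The notes name hg19, but positions run past the ends of hg19 chromosomes and were read as GRCh38. The sources used here do not give how multiply mapped reads were treated.

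tRNA genes were matched to the nearest summit of each list (window 1 kb) with Python 3.11.15, pandas 2.3.3 and scipy 1.17.1. Distances were checked on simulated positions. The table has no strand for genes. Table rows after the point at which positions restart within a chromosome were left out: 0% of the 177 coding genes there have a promoter window, against 79.7% of the rest. Members, lists and comparisons were chosen with earlier results of these data known. Named were genes marked in at least 2 libraries, the 3 highest scoring per library, first and last genes of clusters, the 5 most marked tRNA genes elsewhere and up to 4 genes per list. Other genes were chosen after their values were seen. Alternatives changed the window, score threshold, libraries, cluster gap and histone distance. The array, coding gene ends, a 10 kb window and all table positions were added after seeing the data. The values of 1 listed gene are not reported here.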

Additional observations from a re-analysis of the deposited data

Results flagged for a closer look

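Data outside the comparisons above also held summits, here set down as values. The mitochondrial genome, which carries its own 22 tRNA genes, held 10, 10 and 11 summits in replicates 1 to 3. In each list 21 of the 22 mitochondrial tRNA genes had a summit within 1 kb, with median scores of 20.6, 28.7 and 24.4. The mitochondrial genome is small, so windows of 1 kb around this many summits can reach most of its genes. No share over its other genes was set beside the count, which is therefore not a result about tRNA genes. Scaffolds assigned to chromosome 1 without a place held 7, 9 and 6 summits, and tRNA genes could not be placed on them from the table used. Both were singled out because the signal lay in sequence that the comparisons leave out, and neither has a control library beside it.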

How the results depend on the processing

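No paired analysis was possible because there is only 1 group of samples, so no replicate block between groups can be fitted. The 2 sets of tRNA genes were compared within each library. Of 61 alternatives, 31 were counted as unchanged. A count was unchanged within 1.5 times its value, and the difference from other chromosomes if its sign held. The histone difference was unchanged if its sign held and it moved by less than the SD of the differences of the libraries. At 1 kb with all summits there were 23 genes in any library, 10 in at least 2, 22 summits, a difference of −2.07 points from other chromosomes, a difference of −10 points between tRNA genes near and away from histone genes, and 8 clusters with a summit. At 200 bp the values were 8 genes, 4 genes, 12 summits and −3.48 points near against away from histone genes. At 5 kb they were 37 and 20 genes, 0.712 points (reversed) and −4.54 points. At 10 kb, added after seeing the data, they were 60 and 28 genes, 45 summits, 5.03 points (reversed) and 8.55 points for the histone comparison (reversed). With summits at or above the list median score, 3 genes in at least 2 libraries and 10 summits were left. With the 1000 highest scoring summits of each list the values were 9 and 4 genes, 7 summits and −3.91 points for the histone comparison. Leaving out 1 library at a time gave 12 to 23 genes in any library, 5 to 8 in at least 2, 9 to 18 summits, −4.57 to 1.71 points and −10 to −5.22 points for the histone comparison. Without replicate 3 the lowest counts were 12, 5 and 9, and the difference from other chromosomes turned to 1.71. It was 0.542 with clusters counted once and 1.37 for genes over 5 kb from a coding gene end. Without the array, 13 genes, 3 genes and 13 summits remained. With a cluster gap of 500 kb, 5 of 25 clusters had a summit. The cause of these changes was not tested, apart from fewer genes, libraries or summits by construction. Leaving out pseudogenes was not run, because none of the genes is marked as one. Depth is unknown, so an absent summit does not show absent binding.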

Other observations

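Sequence shared between places was measured in the 7 promoter windows that hold a whole tRNA gene. The share of their words of 36 bases, the read length, that occur at another place among all windows of the table was 15.5% for TRH-GTG1-3, 10.9% for TRL-AAG2-2, 2.26% for TRI-AAT8-1, 0.755% for TRN-GTT4-1 and 0 for TRN-GTT6-1, TRI-TAT2-2 and TRA-AGC2-2. The mean over 34935 windows was 2.37%, and 4.77% of windows shared any word. The windows cover only a small part of the genome, so these shares are lower limits. No window covers the chromosome 1 array.

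The 14 rows of chromosomes 1 and 6 that were given no distance would have added 1 gene with a summit within 1 kb in any library, 24 in place of 23, had their positions been read as chromosome positions. The count in at least 2 libraries was 10 either way.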
